A study of Mus musculus with 4 samples.

Results

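The genes of the nuclear pore and of nuclear transport were examined in mouse morulae after knockdown of Nr1h2, which encodes the oxysterol receptor LXRβ. They were chosen by gene symbol alone, as nucleoporins, importins (karyopherins), exportins and the components of the Ran cycle, and 69 of the 13658 genes of the authors' deposited table matched. Of these, 31 were pore genes, 17 importins, 8 exportins and 11 genes of the Ran cycle or of the mRNA export receptor. The other 2, Ranbp9 and Ranbp10, encode Ran-binding scaffold proteins of a ubiquitin ligase and were matched by their symbols only. The adjusted p-value, and with it a test over all genes, was given for 67 of the 69, and Nup210l and Ranbp3l, with mean normalized counts of 5.80 and 6.70, had none.

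The study injected wild-type fertilized eggs at the 1-cell stage with 4 to 5 pL of siRNA at 100 µM, cultured them in M16 medium until they were morulae and sequenced polyadenylated RNA. The siRNA was either a non-targeting control (siNT, 2 samples) or a pool directed at Nr1h2 (siNr1h2, 2 samples). The number of embryos in a sample is not given, nor whether the replicates were separate injections. The p-values set the difference between the groups against the spread within groups of 2 samples, and that spread may be technical. Values are the authors' means over all samples and their fold changes of siNr1h2 over siNT; values of single samples and the depth of each library are unknown from that table. In whole-embryo RNA, a change in the number of cells of a type and a change in RNA per cell cannot be told apart.

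The nuclear pore is a ring-shaped channel through the nuclear envelope, built from scaffold rings, membrane anchors, a central channel of proteins rich in phenylalanine-glycine repeats, cytoplasmic filaments and a nuclear basket. Proteins with a nuclear localization signal are carried in by importin β, often through an importin α adaptor, while exportins carry proteins and several RNA classes out. The small GTPase Ran gives both routes their direction, because its GTP form, made on chromatin by Rcc1, releases import cargo and holds export cargo, and its GDP form is made in the cytoplasm with the help of Rangap1. Bulk mRNA leaves through a separate receptor, Nxf1 with Nxt1, which does not use Ran.

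Nr1h2 itself stood 5.03 times lower in siNr1h2 (95% interval 3.89 to 6.50) by the authors' deposited table. All 10 morula markers were listed there, among them Nanog with a mean normalized count of 2181 and Gata6 with 3621. Of these 10, Krt8, a keratin gene of the trophectoderm, was lower (log2 fold change -0.50 ± 0.14 (SE), adjusted p = 0.0211) by the authors' deposited table. The other 9 did not pass. Pou5f1, a pluripotency factor gene, stood at 0.43 ± 0.15 (adjusted p = 0.117), Sox2 at 0.23 ± 0.31, Gata6 at 0.20 ± 0.12 and Nanog at 0.06 ± 0.14. The rest were Tead4 (0.06 ± 0.16), Cdh1 (0.06 ± 0.13), Cdx2 (0.01 ± 0.23), Sall4 (0.0008 ± 0.12) and Gata3 (-0.11 ± 0.17). Of 9 cumulus and granulosa markers 3 were listed, and only Amhr2 had an adjusted p (mean 65.1, log2 fold change 0.80 ± 0.35 (SE)). Foxl2 (mean 1.94, -1.56 ± 1.97) and Cyp19a1 (mean 2.89, -1.43 ± 1.64) had log2 fold changes on the other side of 0, with wide errors at low counts. Of 7 blood and immune markers 3 were listed, with mean normalized counts of 4.33 to 150.3. Their part in the results below was not tested.

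Nup62cl and Kpna1 were the only members that passed an adjusted p of 0.05 according to the authors' deposited table (DESeq2 Wald test with Benjamini-Hochberg adjustment), and both were lower after Nr1h2 knockdown. They made up 2 of 67 members, or 2.99%. Over all 12069 genes with an adjusted p, 1.98% were called in either direction, 1.52% lower and 0.456% higher, so the members' share lies near the background. At an unadjusted p under 0.05 there were 9 members, or 13.4% of the 67, against 13.3% of all genes. Of these, 8 had fold changes below 0 and 1 above, where 7.31% of all genes had this p with a fold change below 0 and 5.97% above. The median log2 fold change of the members was -0.07, against 0.0042 for all genes, and 42 of 67 lay below 0 (62.7%), against 49.4% of all genes and 53.8% of the genes whose mean normalized count was at least 200.

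By the deposited standard errors, most members had narrow intervals around their fold changes. The 95% interval lay within 1.5 times of the control level in both directions for 55 of 67 members (82.1%), compared with 40.7% of all genes and 76.3% of those whose mean normalized count was at least 200. These intervals are not adjusted for the number of genes. They rest on the normal distribution and on 2 samples per group, whose spread may be technical. Under a t distribution with 2 degrees of freedom they would be wider, so they do not exclude larger changes. The change needed for a call had a median of 1.39 times over the members, and smaller changes could be called for the more precisely measured ones: Ranbp1 needed 1.29 times and Kpna1 1.35 times.

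**Figure D1:**
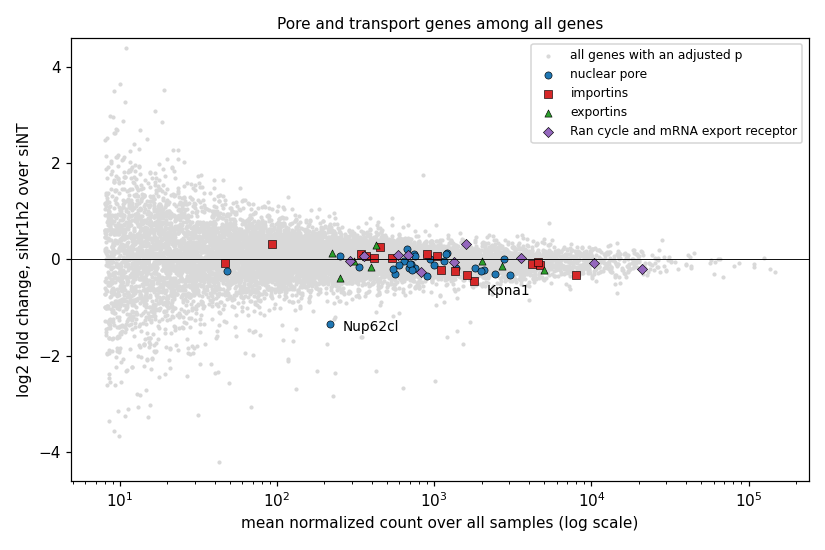
Log2 fold change (siNr1h2 over siNT) against the mean normalized count over all samples on a log axis. Grey points are all 12069 genes with an adjusted p, coloured points the 65 pore, importin, exportin, Ran cycle and mRNA export members; Nup62cl, at a mean of 217.9 and a log2 change of -1.35, lies apart from the other members.

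Nup62cl, a paralogue of the central channel nucleoporin gene Nup62 that encodes a protein like the C-terminal part of Nup62, had the largest fold change of the 67 members with an adjusted p. It was 2.54 times lower in siNr1h2 by the authors' deposited table (95% interval 1.89 to 3.41, log2 fold change -1.35 ± 0.22 (SE), adjusted p = 2.62e-07) at a mean normalized count of 217.9. Nup62 itself had a log2 change of -0.04 ± 0.15 (adjusted p = 0.953) at a mean of 639.3 in the same table, and the intervals of the paralogues do not overlap. Per kilobase of transcript the mean level of Nup62cl was 109.2 and that of Nup62 234.8, with lengths from the longest coding transcript in GENCODE; with median transcript lengths the order turns, with Nup62cl at 306.0 and Nup62 at 264.8. No transcript of another gene matched the Nup62cl transcript at 95% identity or more over at least 300 bases. Nup62cl kept its call under 9 of 10 other settings of the whole table. The exception was a t distribution with 2 degrees of freedom, under which no gene passed. Most of the settings leave its fold change and unadjusted p as deposited, so the tally does not measure stability.

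Nup62cl lies on chromosome X. Of 438 X-linked genes with an adjusted p, 19 were lower (4.34%, against 1.52% of all genes, a difference that was not tested) by the authors' deposited table. The 438 had a median of -0.12 in log2 fold change. By fold, Nup62cl was the 4th of these 19. Of 8 Y-linked genes, Kdm5d was higher (log2 fold change 2.08 ± 0.60, adjusted p = 0.0372, mean 23.4) and 7 did not pass, with Ddx3y at 0.33 ± 0.17 and Eif2s3y at 0.26 ± 0.17 by the authors' deposited table. Xist stood at 0.12 ± 0.14 there. The part of the sex of the embryos in the value of Nup62cl was not tested. The other X-linked member, Nxt2, had a log2 change of -0.03 ± 0.19 by the authors' deposited table.

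The promoters of Nup62cl, a called member, and of its paralogue Nup62 are shown. These paralogues had the widest difference in fold change among the 10 pairs of related genes compared. For Kpna1, the other called member, no promoter sequence was available. Each sequence is the 250 bases before the transcription start in RefSeq (build GRCm38.p6), Nup62cl at chrX:140062569-140062818 on the minus strand and Nup62 at chr7:44815838-44816087 on the plus strand. Capitals mark, on either strand, the letters CCAAT, bound by the factor NF-Y, and the GC box with the letters GGGCGG.
Nup62cl: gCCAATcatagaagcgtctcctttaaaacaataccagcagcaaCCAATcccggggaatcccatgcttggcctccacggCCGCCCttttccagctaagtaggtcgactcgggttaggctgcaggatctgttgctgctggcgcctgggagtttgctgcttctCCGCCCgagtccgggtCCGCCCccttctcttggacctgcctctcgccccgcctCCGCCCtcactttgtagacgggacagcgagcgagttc
Nup62: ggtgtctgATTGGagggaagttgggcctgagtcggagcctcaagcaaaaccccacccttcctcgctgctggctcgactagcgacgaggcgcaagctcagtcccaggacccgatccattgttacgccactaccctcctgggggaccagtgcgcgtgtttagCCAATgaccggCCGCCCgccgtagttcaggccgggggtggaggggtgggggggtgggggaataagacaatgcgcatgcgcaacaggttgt
Both windows hold 2 CCAAT boxes, and GC boxes number 4 in Nup62cl and 1 in Nup62. Neither holds the nuclear receptor hexamer AGGTCA on either strand, a statement about these letters in these windows and not about the receptor. Promoters were found in RefSeq under the same symbol for 56 members and 10769 genes of the table. AGGTCA occurred in 2 of these 56 members, Ranbp17 and Rangrf (3.57%), and in 13.4% of the 10769 genes. GC boxes occurred in 71.4% of the members and 61.9% of the genes, CCAAT boxes in 42.9% and 40.8%.

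Of the 31 pore genes, only Nup62cl passed, 29 did not and Nup210l had no adjusted p. The 1 call is 3.33% of the 30 with an adjusted p, against 1.98% of all genes. By the authors' deposited table, 21 of these 30 lay below 0 (70.0%). Below 0 lay 49.4% of all genes and 53.8% at mean normalized counts of at least 200. The median log2 fold change of the 30 was -0.14, which stayed below 0 under each scaling (-0.25 to -0.10). The 25 whose intervals stayed within 1.5 times included each of the 8 genes of the outer ring.

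The outer ring, or Y complex, is the scaffold that coats the pore membrane on both faces. Seh1l, one of its WD-repeat subunits, had the smallest p of the 8, with a log2 change of -0.30 ± 0.12 (adjusted p = 0.227) by the authors' deposited table. Nup43 (-0.25 ± 0.14), Nup160 (-0.22 ± 0.16), Nup107 (-0.19 ± 0.16), Nup37 (-0.18 ± 0.13) and Nup133 (-0.12 ± 0.15) had log2 fold changes on the same side of 0 and did not pass according to the authors' deposited table. Sec13, which also belongs to the COPII coat of vesicles leaving the endoplasmic reticulum, stood at 0.0004 ± 0.13 and Nup85 at 0.08 ± 0.14 there. The mean normalized counts of the 8 ran from 546.2 for Nup107 to 2761 for Sec13.

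In the inner ring, which links the scaffold to the membrane and the channel, Nup35 had the highest mean level per kilobase of transcript, 1942, followed by Nup93 at 243.5 with the longest coding transcripts and by Nup188 at 471.6 with median lengths (44.1 with the longest). It had a mean normalized count of 3027 and a log2 change of -0.33 ± 0.14 (adjusted p = 0.252) by the authors' deposited table. A gene model, Gm4353, matches its transcript at 99.6% identity over 1547 bases, so the value of Nup35 is uncertain where reads of copies were split. Nup93 (-0.09 ± 0.15), Nup155 (-0.09 ± 0.15), Nup205 (-0.04 ± 0.14) and Nup188 (0.07 ± 0.21), the large scaffold proteins of the ring, had log2 fold changes within 0.1 of 0 by the authors' deposited table. Their mean normalized counts ran from 251.8 for Nup188 to 1148 for Nup205.

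Of the membrane anchors, Ndc1 and Pom121 had log2 changes of 0.22 ± 0.16 and 0.06 ± 0.14 by the authors' deposited table. Nup210, the pore glycoprotein known for its restriction to certain cell types, had a mean normalized count of 47.8 and a log2 change of -0.24 ± 0.40, and its relative Nup210l 0.59 ± 1.14 there. At those counts a change of 2.50 times would have been needed for Nup210 to be called.

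The channel proteins other than Nup62cl did not pass. Nupl1 (-0.19 ± 0.17) and Nup54 (-0.12 ± 0.15), which form the channel complex with Nup62, and Nup98 (-0.18 ± 0.14), a repeat protein of both faces, had log2 fold changes below 0 by the authors' deposited table. On the cytoplasmic side, Nup214, which serves mRNA and protein export, stood at -0.31 ± 0.17 (adjusted p = 0.408) and its partner Nup88 at 0.11 ± 0.14 there. Ranbp2, the giant filament protein that binds Ran and Rangap1, had a log2 change of -0.19 ± 0.13, Nupl2 -0.16 ± 0.19, the ALADIN gene Aaas 0.13 ± 0.14 and the mRNA export factor gene Rae1 0.11 ± 0.14 by the authors' deposited table. In the nuclear basket, Nup153 had the lowest log2 fold change of the pore genes that did not pass, at -0.36 ± 0.16 (adjusted p = 0.305), with Tpr at -0.23 ± 0.13 and Nup50 at 0.01 ± 0.14 by the authors' deposited table.

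**Figure D2:**
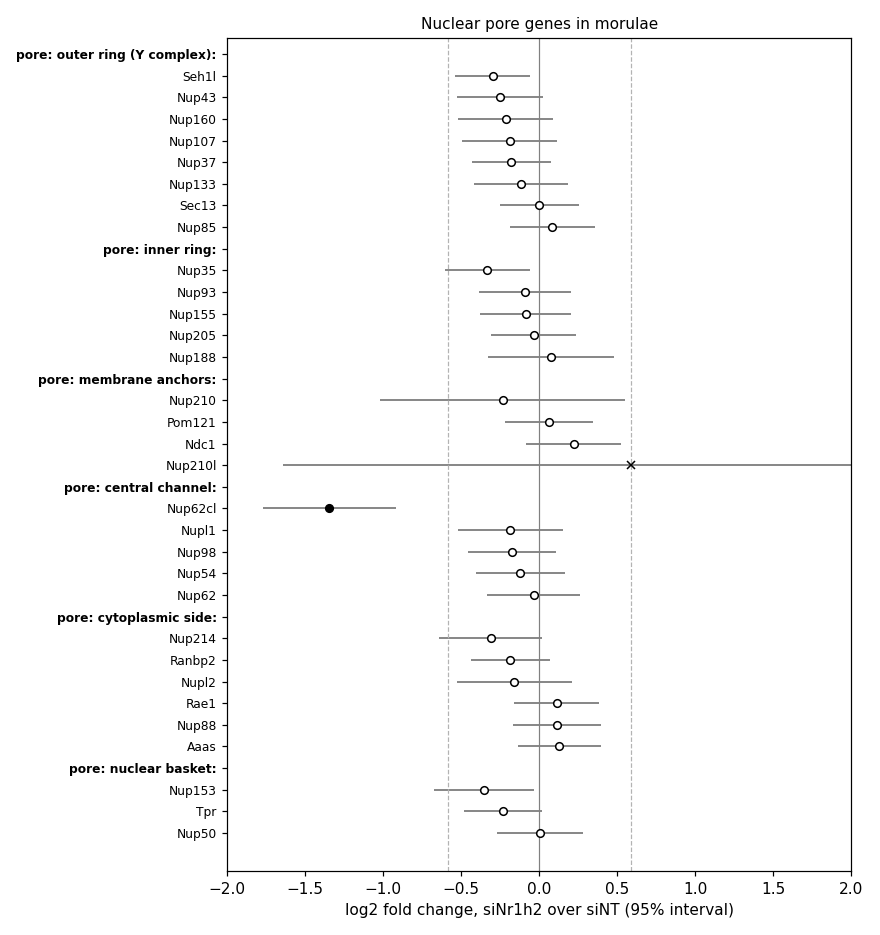
Log2 fold change (siNr1h2 over siNT) of the 31 pore genes by position in the pore, with 95% intervals; filled circles passed an adjusted p of 0.05, open circles did not, and the cross marks Nup210l, which has no adjusted p and whose interval runs past the axis. Dashed lines mark a change of 1.5 times; the interval of Nup62cl lies wholly to the left of the lower line.

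Among the importins, 1 of 17 passed and was lower (5.88%), against 1.98% of all genes called in either direction and 1.52% called lower. Kpna1 alone makes up this share. Below 0 lay 9 of the 17 (52.9%), against 49.4% of all genes and 53.8% at mean normalized counts of at least 200. The median log2 fold change was -0.06. It became 0.015 once the dependence of fold changes on GC content and transcript length had been taken out. The importin α adaptors and the importin β family lay apart in their medians, at -0.33 for 5 and 0.04 for 12 genes by the authors' deposited table, a difference that was not tested. The median of the adaptors stayed below 0 under each scaling (-0.44 to -0.21), and that of the β family turned to -0.06 when fold changes were centred on ribosomal protein genes.

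Kpna1, an importin α adaptor (importin α5 in the human naming) that binds proteins with a nuclear localization signal, was, by the authors' deposited table, lower by 1.37 times (95% interval 1.15 to 1.63, log2 fold change -0.45 ± 0.13 (SE), adjusted p = 0.0348) at a mean normalized count of 1791. Its adjusted p lies just inside the threshold, and that of Kpna2 (0.176) was the nearest outside it. The call ended when fold changes were centred on genes whose mean normalized count was at least 500 (log2 fold change -0.41, adjusted p = 0.0661) and when the length and GC trend was removed (-0.35, adjusted p = 0.180). It held under 4 of 10 settings of the whole table, with adjusted p-values from 0.00173 to 0.0394 there, and over all 10 settings they ran from 0.00173 to 1.0. The settings that kept the call include the looser threshold of 0.1 and centring on ribosomal protein genes, which lowers every fold change. This tally therefore does not measure stability either. The Kpna1 transcript has a GC content of 42.1%, and fold changes over all genes rose by 0.0147 on the log2 scale per percent of GC.

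Kpna2, with a mean normalized count of 7970, had a log2 change of -0.33 ± 0.13 by the authors' deposited table. Its transcript is matched at 99.9% identity over 1968 bases by the gene model Gm10184, and in all by 5 other genes, so its value is uncertain. Kpna4 (-0.33 ± 0.14, adjusted p = 0.274) and Kpna3 (-0.23 ± 0.14, adjusted p = 0.504), which form another subfamily of adaptors, did not pass according to the authors' deposited table. Kpna6, the closest relative of Kpna1, stood at 0.03 ± 0.16 there, and the intervals of Kpna1 and Kpna6 overlap.

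Kpnb1, the importin β that takes the adaptors and many cargoes through the pore, had a log2 change of -0.09 ± 0.11 at a mean normalized count of 4200 by the authors' deposited table, with an interval of 0.803 to 1.1 times the control level. Ipo5 (-0.12 ± 0.11) and Ipo7 (-0.06 ± 0.14), known as carriers of ribosomal proteins, had means of 4709 and 4576 and did not pass there. Ipo11, which carries a ubiquitin-conjugating enzyme, had the smallest p of the β family (-0.25 ± 0.14, adjusted p = 0.450), followed by Ipo9, a carrier of histones (0.27 ± 0.17, adjusted p = 0.518), by the authors' deposited table. Ipo4 (0.11 ± 0.14), Ipo8 (0.12 ± 0.18) and the transportin genes Tnpo1 (0.02 ± 0.19), Tnpo2 (0.06 ± 0.20) and Tnpo3 (0.07 ± 0.14) had log2 fold changes above 0 there, and none passed. Ipo13, which works in both directions (0.32 ± 0.32, mean 92.8), and Ranbp6, a relative of Ipo5 (-0.07 ± 0.43, mean 46.6), had the widest errors among the importins by the authors' deposited table.

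No exportin passed by the authors' deposited table, and none did by Holm adjustment or with centring on ribosomal protein genes. At an unadjusted p under 0.05 there was 1 of 8, Xpo1 (12.5%, against 13.3% of all genes). Xpo1, the export receptor for proteins with a leucine-rich signal, had a log2 change of -0.23 ± 0.12 (adjusted p = 0.372) at a mean of 5021 there. Cse1l, which returns importin α to the cytoplasm, stood at -0.13 ± 0.12, and Xpot, which exports tRNA, at -0.04 ± 0.12 by the authors' deposited table. The interval of Cse1l ran from 0.773 to 1.08 times the control level. Xpo5, the exporter of microRNA precursors (-0.04 ± 0.21), Xpo6, the exporter of actin (-0.17 ± 0.19), and Ranbp17 (0.13 ± 0.22) had log2 fold changes near 0 with wider errors there. Xpo4 (-0.40 ± 0.21, adjusted p = 0.391) and Xpo7 (0.30 ± 0.17, adjusted p = 0.467) marked the ends of the exportin range by the authors' deposited table. The median of the 8 was -0.09 and stayed below 0 under each scaling (-0.19 to -0.04).

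Of the Ran cycle, none of the 7 genes with an adjusted p passed by the authors' deposited table. At an unadjusted p under 0.05 there was 1 of the 7, Rangap1 (14.3%, against 13.3% of all genes). Rangap1, which triggers GTP hydrolysis by Ran, was the only member of all 67 with an unadjusted p under 0.05 and a fold change above 0, at 0.31 ± 0.13 on the log2 scale (adjusted p = 0.231) there. Ran itself had a mean normalized count of 20866, the highest of all members, and a log2 change of -0.21 ± 0.11 (adjusted p = 0.429) by the authors' deposited table. A retrocopy matches its transcript at 97.3% identity over 662 bases, and 4 genes match that of Nutf2, the longest match at 100% over 868 bases, so both values are uncertain. Of all 69 members, 14 have a match to another gene's transcript (at least 95% identity over 300 bases), and the same limit holds for Ipo4, Kpnb1, Nup54, Nup133, Nupl1, Pom121, Rangrf, Tnpo1, Xpo4 and Xpot. Rcc1, the exchange factor, stood at 0.09 ± 0.15, Ranbp1, a co-factor of hydrolysis, at -0.07 ± 0.11 and Nutf2, which carries Ran back to the nucleus, at 0.02 ± 0.13 by the authors' deposited table. Rangrf (0.09 ± 0.19) and Ranbp3, a cofactor of Xpo1 (0.08 ± 0.21), also did not pass there. All 7 intervals lay within 1.5 times of the control level. Ranbp3l, at a mean of 6.70, had a log2 change of 1.55 (standard error 1.1) without an adjusted p by the authors' deposited table, where a change of 12.5 times would have been needed.

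The mRNA export receptor subunits did not pass. Nxf1 had a log2 change of -0.27 ± 0.16 (adjusted p = 0.446), and its partners Nxt1 and Nxt2 had -0.05 ± 0.13 and -0.03 ± 0.19 by the authors' deposited table. Ranbp9 (-0.20 ± 0.13) and Ranbp10 (0.07 ± 0.21), the symbol-only matches, did not pass either by the authors' deposited table.

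**Figure D3:**
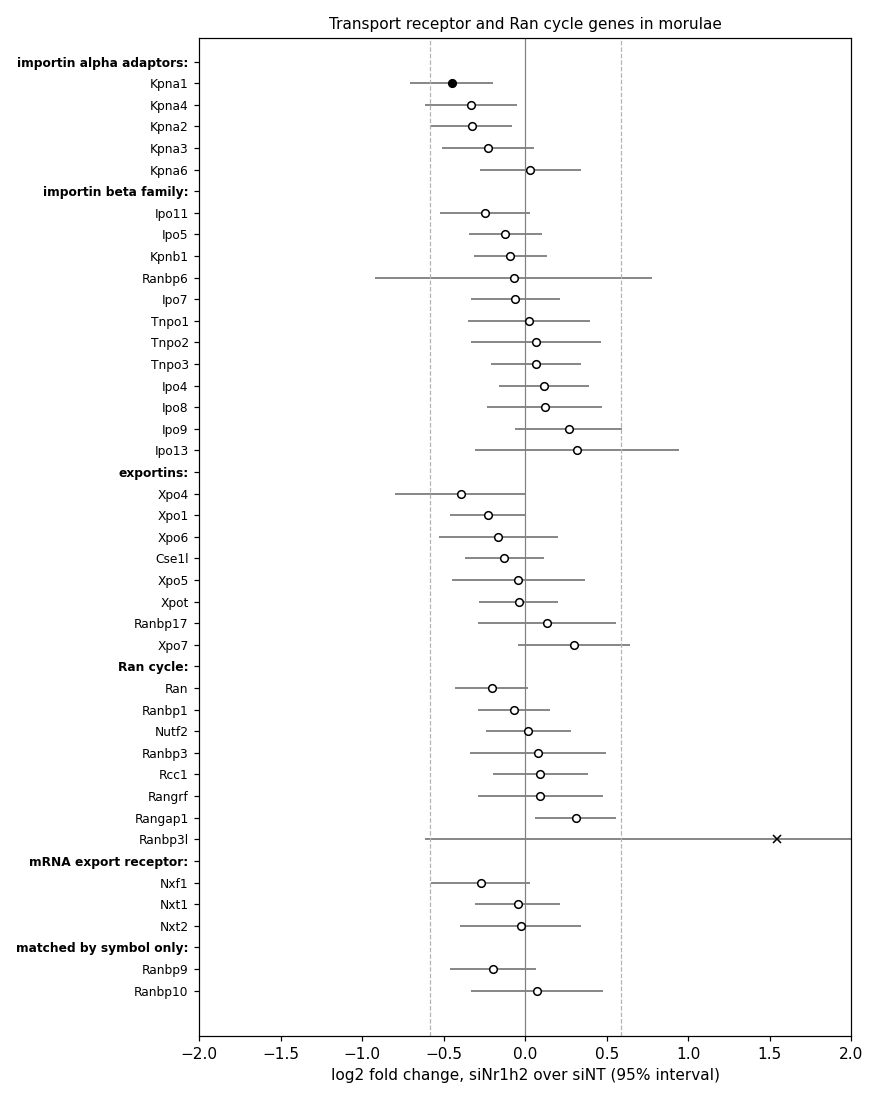
Log2 fold change (siNr1h2 over siNT) of the importins, exportins, Ran cycle, mRNA export receptor and symbol-only genes with 95% intervals; filled circles passed an adjusted p of 0.05, open circles did not, and the cross marks Ranbp3l, which has no adjusted p and whose interval runs past the axis. Dashed lines mark a change of 1.5 times; Kpna1 is the only filled circle.

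Members differed far more in level than in fold change. Per kilobase of the longest coding transcript, Ranbp1 (mean level 9624), Ran (8612), Kpna2 (3880) and Nutf2 (3775) were the 4 highest, and they were also the 4 highest by median transcript length. In the pore the highest levels per kilobase were those of Sec13 (2041), Nup35 (1942), Nup43 (1553) and Nup37 (1079). With median lengths Nup54 (2378, against 424.6) and Aaas (1650, against 667.4) joined Nup35 (2737) and Sec13 in the first 4. Large pore proteins were lower, with Nup205 at 179.1, Nup160 at 127.3 and Nup155 at 89.4 per kilobase. Among carriers, Ipo5 (1042), Ipo7 (960.8), Xpo1 (836.3), Cse1l (736.2) and Kpnb1 (712.6) led by the longest transcript, and with median lengths Ipo4 (1488, against 234.4) and Xpo1 (1199) were above Ipo5. Nup210l (1.02), Ranbp3l (1.98), Nup210 (6.79) and Ranbp6 (10.2) were lowest of all members per kilobase by either length. These are means over both groups with no error per sample, so neighbours in this order cannot be separated.

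Related genes that share a role were set side by side in 10 pairs. In 9 of the 10 pairs the 95% intervals of the log2 fold changes overlapped, and Nup62 with Nup62cl was the exception, with a difference of -1.31 on the log2 scale. Kpna6 lay 0.48 above Kpna1 and Kpna4 0.10 below Kpna3 in the log2 fold changes. The error of such a difference needs values per sample, so no test was made. Overlap of the intervals does not show that the genes of a pair changed alike.

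**Figure D4:**
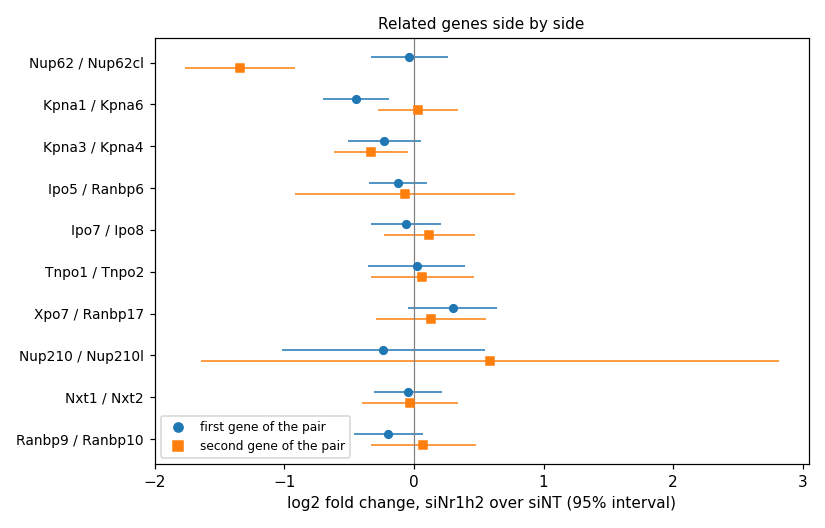
Log2 fold change (siNr1h2 over siNT) with 95% intervals for 10 pairs of related genes, the first gene of each pair in blue circles and the second in orange squares. Only the intervals of Nup62 (-0.04) and Nup62cl (-1.35) are separate.

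Genes of the same or neighbouring processes that the symbol rule leaves out numbered 62 in the table, 60 with an adjusted p. Of these 60, 1 was lower (1.67%, against 1.52% of all genes) and none higher by the authors' deposited table, so the share lies near the background. The median log2 fold change was -0.04. The lower gene was Nxf2, a relative of Nxf1 on chromosome X that is known from germ cells, 3.88 times lower (95% interval 2.25 to 6.66, adjusted p = 0.000277) at a mean of 62.3 by the authors' deposited table. Nxf7, another X-linked relative, stood at -2.23 ± 0.90 (adjusted p = 0.216, mean 11.97), and Nmd3, the adaptor that exports the large ribosomal subunit through Xpo1, at -0.41 ± 0.13 (adjusted p = 0.0734) there. In the Nup62 and Nxf1 families the X-linked relatives Nup62cl and Nxf2 were lower, while Nup62 and Nxf1 did not pass. Other X-linked genes of these lists did not pass either, namely Nxf7, Nxt2 (-0.03 ± 0.19), Thoc2 (0.07 ± 0.14) and Emd (0.23 ± 0.18). Of 23 pore and envelope genes with an adjusted p none passed. At an unadjusted p under 0.05 there were 2 of the 23 (8.70%, against 13.3% of all genes). Ahctf1, which seeds pores on chromatin, stood at -0.32 ± 0.15 (adjusted p = 0.320) and the inner membrane gene Lemd2 at 0.77 ± 0.39 by the authors' deposited table. A last list of 8 genes held Snupn, the snurportin gene, with import cofactors and genes that are not import cofactors, such as Nufip1. None of the 8 passed or had an unadjusted p under 0.05, with Nufip1 at -0.26 ± 0.14 and Snupn at -0.29 ± 0.17 by the authors' deposited table.

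**Figure D5:**
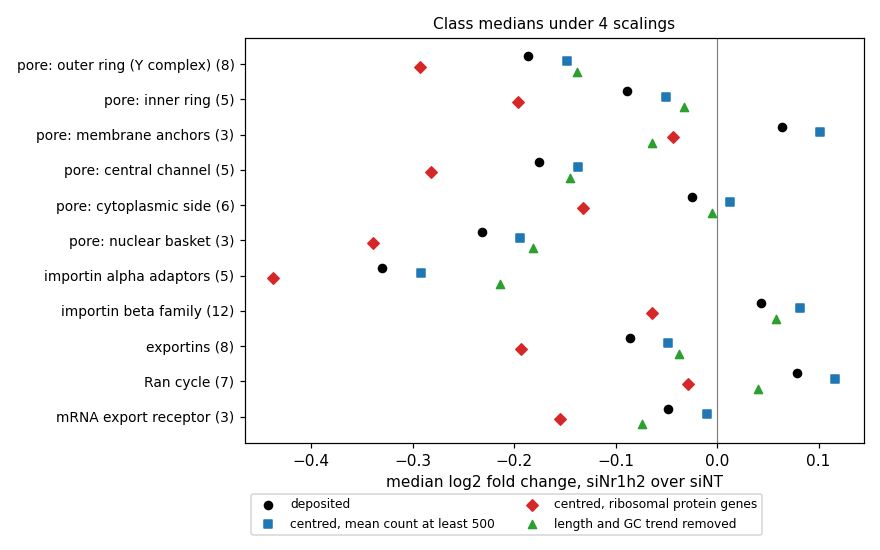
Median log2 fold change (siNr1h2 over siNT) of each class, with the number of genes in parentheses, as deposited and under 3 other scalings of all genes. Centring shifts every gene by the same amount, so it cannot change the order of the classes. The importin α adaptors have the lowest median as deposited (-0.33, nuclear basket -0.23). With the length and GC trend removed the adaptors lie at -0.21 and the basket at -0.18. The membrane anchors, cytoplasmic side, importin β family and Ran cycle change sign between the 4 scalings.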

How the data were processed

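The data are 1 table of the authors' comparison of siNr1h2 with siNT morulae, in DESeq2's output columns, per the file headers. Per the submitters' processing notes, DESeq2, edgeR, STAR, RSEM, Cufflinks 2.2.1 and HTSeq 0.12.4 were used with build mm9, with no role or order given; the libraries (SMART-Seq v4 and Nextera XT, per the labels' protocols) carry no strand. The deposited values are a mean normalized count (a signal, counts over size factors), a log2 fold change with its standard error, a Wald statistic (a score), and a p-value with its adjusted p-value. The statistic equalled fold change over standard error, which does not settle whether the deposited log2 values were shrunken. The table holds no values per sample (0 such columns were left out), so depth is unknown and no test was refitted.

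Members were matched by symbol and sorted into classes. Members and lists were chosen with earlier results of these data known. Calls are adjusted p-values under 0.05, and intervals are 1.96 standard errors. In each class the rule named up to 4 members with the smallest p, the highest and lowest means and all called; the text also gives the rest. Lengths, GC content and chromosomes came from GENCODE M21 (GRCm38) for 99.3% of genes, by symbol; promoters came from RefSeq (56 of 69 members). Copies were sought with BLAST among GENCODE transcripts (95% identity, 300 bases). Protein sequences were not used here. Python 3.11.15, pandas 2.3.3 and scipy 1.17.1 were used, and the scripts were tested on simulated data.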

Additional observations from a re-analysis of the deposited data

How the results depend on the processing

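The 2 lower members became 1 (Nup62cl) at a threshold of 0.01, under Holm adjustment or with a minimum change of 1.5 times. The same held when fold changes were centred on genes with a mean count of at least 500, or with the length and GC trend removed. The importins then held 0, and 0.398% to 1.18% of all genes were lower, against 1.52% as deposited. Without X-linked members, a setting added once the values were known, 1 remained in all and 0 in the pore. Centring on ribosomal protein genes moved the median of all genes to -0.10 and raised the share of all genes called lower to 3.71%. With it, 5 members were lower, of which 3 were pore genes (Nup62cl, Nup35 and Seh1l) and 2 importins (Kpna1 and Kpna2). It also gave 2 lower genes outside the symbol rule, as did a threshold of 0.1 (2). With a t distribution of 2 degrees of freedom 0 members, 0 pore genes, 0 importins and 0 genes outside the rule passed, nor did Nr1h2 (-2.33, adjusted p = 0.948), a design too small to say anything about stability. Exportins, the Ran cycle and the mRNA export receptor had no call under any setting, and no member was called higher.

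Values of uncalled genes that changed sign lay within 0.11 of 0 on the log2 scale, except that of Nxt2 with the length and GC trend removed (0.19). Centred on ribosomal protein genes these were Tnpo3 (-0.041), Sec13 (-0.11), Ranbp3 (-0.029), Ranbp10 (-0.036), Pom121 (-0.043), Tnpo1 (-0.085), Nutf2 (-0.088), Nup85 (-0.025), Nup50 (-0.10), Tnpo2 (-0.043), Nup188 (-0.035), Kpna6 (-0.078), Rcc1 (-0.015) and Rangrf (-0.015). Centred on genes with a mean of at least 500 they were Nup205 (0.00083), Nup62 (0.0022) and Nxt2 (0.0086). With the trend removed they were Sec13 (-0.016), Ipo7 (0.068), Ranbp3 (-0.037), Tnpo2 (-5.7e-05), Nxt2 (0.19), Nup188 (-0.0077), Ranbp6 (0.048) and Pom121 (-0.064). With median transcript lengths the level per kilobase was 12094 for Kpna2 and 306.0 for Nup62cl. No paired analysis was possible because the table holds no values per sample; for the same reason no replicate could be left out. Counts and depth limit low genes most.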
